A study of Mus musculus with 6 samples.

Results

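The early growth response (Egr) transcription factors and their Nab corepressors were examined in C2C12, a mouse myoblast line that exits the cell cycle and fuses into myotubes when serum is changed. The 6 genes, Egr1, Egr2, Egr3, Egr4, Nab1 and Nab2, were taken by symbol from a table of 43074 genes, and all 6 had a row. RNA sequencing covered 3 groups of 2 libraries, all labelled wild type. Day 0 cells were untreated cells from growth medium with fetal bovine serum. The other groups were kept for 4 days in differentiation medium with horse serum, one with DMSO and one with 1 mM 4-phenylbutyric acid (4-PBA), a short aromatic fatty acid used both as a chemical chaperone and to inhibit histone deacetylases. The title of the study asks about an axis of NF-κB and Egr-1 under 4-PBA, and the design compares day 4 with day 0 and the 4-PBA with the DMSO cells. The cells are 1 immortal line. Nothing in the labels ties replicates to separate cultures, so p-values measure the spread between these libraries, which may be technical.

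Egr genes are immediate-early genes: growth factors, serum and stress switch them on within minutes through the ERK kinase cascade and serum response factor. The 4 Egr proteins bind GC-rich DNA through closely related zinc fingers. Nab1 and Nab2 carry no DNA-binding domain of their own. They bind Egr proteins and repress Egr target genes, in part through the NuRD chromatin remodelling complex, and Nab2 is itself known as an Egr target, which closes a negative feedback loop. Egr2 is best known for its role in Schwann cell myelination and Egr3 for the development of muscle spindles.

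Promoter sequence was available in the RefSeq table (GRCm38.p6) for 4 of the 6 genes, Egr2, Egr4, Nab1 and Nab2. Sequences are shown for an Egr gene that rose at day 4 and for both Nab genes, chosen because they hold the letters of motifs for the factors named above. The 250 bases before a start of Egr2 (chr10:67537619-67537868, plus strand) are printed with a CArG box, the sequence bound by serum response factor, and the ACGTCA core of a cAMP response element in capitals.
Egr2 upstream: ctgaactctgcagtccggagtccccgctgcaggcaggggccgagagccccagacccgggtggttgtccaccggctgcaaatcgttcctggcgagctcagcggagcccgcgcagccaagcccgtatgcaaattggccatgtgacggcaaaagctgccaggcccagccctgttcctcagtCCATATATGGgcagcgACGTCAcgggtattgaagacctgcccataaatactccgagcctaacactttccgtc
The CArG box lay at -72 to -63 and ACGTCA at -56 to -51 from that start. On either strand, a CArG box was present in 1.47% of 32851 upstream windows of this length and ACGTCA in 6.47%. The NF-κB motif, present in 7.25% of windows, was not matched in this window. It was matched before another of the 5 listed Egr2 starts and in the windows of Egr4 and Nab1.

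The 250 bases before the start of Nab1 held 2 matches of the Egr consensus GCGTGGGCG, one on each strand, a sequence found in 0.536% of windows. The window of Nab2 held the shorter GCGTGGG, which is contained in the longer consensus and was found in 4.30% of windows, on the opposite strand. These sites are printed along the strand of the gene with the match in capitals, at chr1:52500570-52500599 and chr1:52500538-52500567 (minus strand) for Nab1 and chr10:127666716-127666745 (minus strand) for Nab2.
Nab1 site at -141 to -133: gccccgcggcCGCCCACGCcgggatctgcg
Nab1 site at -109 to -101: actcggccgcGCGTGGGCGggagccggagc
Nab2 site at -31 to -25: ccccggttctgCCCACGCcctcctcccgcc
In GENCODE M21, 231 of the 250 bases of the Nab1 window and 60 of the Nab2 window lie in annotated exons, against 0 of the Egr2 window printed above. These matches describe the sequence and are not measured binding sites.

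Libraries held 47908926 to 74697397 counts, and mitochondrial genes took 3.14% to 3.43% of them. All 10 myoblast and myotube markers had counts in every library, and their summed level was 1405 and 1413 CPM (counts scaled by library size with TMM factors) at day 0. At day 4 it was 7766 and 8046 CPM in the DMSO libraries, above the 7555 and 7672 CPM of the 4-PBA libraries. The 11 markers of other cell types summed to 129 to 174.5 CPM, of which Tubb3 alone gave 125 to 171 CPM, and Sox10, which marks Schwann cells, had no count in any library. In bulk RNA, fewer cells expressing a gene and less RNA per cell cannot be told apart.

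Egr1, Egr2 and Egr3 rose from day 0 to day 4, by 2.38-fold to 3.46-fold with DMSO, while Nab1 and Nab2 fell by 1.41-fold and 1.47-fold. Day, serum and treatment changed together between these groups, so differentiation cannot be told apart from them. All 5 were called by the quasi-likelihood test of edgeR (adjusted p under 0.05 over all tested genes) in DMSO day 4 against day 0. Of 17433 tested genes, 66.3% were called in that comparison, 33.8% as higher and 32.6% as lower. For each of the 5 the libraries of the groups did not overlap, as for 81.9% of tested genes (42.0% higher and 39.9% lower). Egr4 had too few counts to be tested.

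Egr1, the best studied of the family, stood at 119 and 117 CPM at day 0 and at 286 and 274 CPM with DMSO. The pairs did not overlap, and the replicates of each lay close together. Its log2 fold change was 1.25 (SE 0.223, adjusted p 0.0158), with a 95% interval from 0.56 to 1.94. The SE came from the fit of all 6 libraries. The 4-PBA pair, with a log2 difference of 0.54 between its replicates, therefore also entered it.

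Egr2 stood at 9.88 and 9.90 CPM at day 0 and at 39.0 and 29.7 CPM with DMSO. Both DMSO libraries lay far above day 0, replicate 1 higher than replicate 2. Its log2 fold change of 1.79 (SE 0.262, adjusted p 0.00846) was the largest of the 5. Egr3 stood at 20.0 and 19.4 CPM at day 0 and at 56.9 and 43.9 CPM with DMSO, with the same order of the DMSO replicates. Its log2 fold change was 1.35 (SE 0.166, adjusted p 0.00253).

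The corepressors fell, with smaller fitted standard errors than the Egr genes. Nab1 stood at 75.8 and 81.6 CPM at day 0 and at 56.7 and 55.5 CPM with DMSO, a log2 fold change of -0.49 (SE 0.0450, adjusted p 7.34e-12). Nab2 stood at 113 and 116.5 CPM at day 0 and at 81.2 and 75.6 CPM with DMSO, a log2 fold change of -0.55 (SE 0.0458, adjusted p 5.26e-11). For both genes the 2 groups did not overlap.

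Cells kept with 4-PBA showed the same directions against the same day 0 libraries, so these values share their controls with those above. All 5 tested genes were called, against 65.6% of all tested genes, 33.2% higher and 32.4% lower. Again none overlapped with day 0, as for 81.8% of tested genes (41.7% higher and 40.1% lower). The log2 fold change was 1.31 (SE 0.2235) for Egr1, 1.785 (SE 0.263) for Egr2 and 1.085 (SE 0.168) for Egr3, with adjusted p between 0.00572 and 0.0141 by edgeR. It was -0.39 (SE 0.0451, adjusted p 1.53e-09) for Nab1 and -0.33 (SE 0.0456, adjusted p 4.83e-07) for Nab2.

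The Egr calls against day 0 were lost in several fits without 1 library, at log2 fold changes close to those above. With DMSO, Egr1 lost its call when any of the 4 libraries compared was left out (log2 fold change 1.22 to 1.28, adjusted p 0.0782 to 0.0977), and Egr2 did when either day 0 library was (1.79 and 1.80, adjusted p 0.0627 and 0.0704). With 4-PBA, Egr1 lost its call without either day 0 library (1.32 and 1.30, adjusted p 0.0857 and 0.0911) and without either DMSO library, which enters only through the shared spread (1.31 in both, adjusted p 0.0527 and 0.0526). Egr2 lost it without either day 0 library (1.78 and 1.79, adjusted p 0.0640 and 0.0716), and Egr3 without day 0 replicate 2 (1.07, adjusted p 0.0589). In fits of only the 4 libraries compared, Egr1 was called with DMSO (1.24, adjusted p 7.22e-18 by edgeR). It was also called with 4-PBA (1.32, adjusted p 0.0497). The fits without 4-PBA replicate 1 or 2 were not among those that lost the Egr1 call. DMSO over day 0 then gave log2 fold changes of 1.26 (replicate 1 left out) and 1.25 (replicate 2 left out). For 4-PBA over day 0 they were 1.02 and 1.56, in the same order. Those fits held 1 library of the 4-PBA group, so its replicate spread did not enter them. The part of that spread in the lost calls was not tested. The calls of Nab1 and Nab2 against day 0 held under all 14 alternatives.

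**Figure D1:**
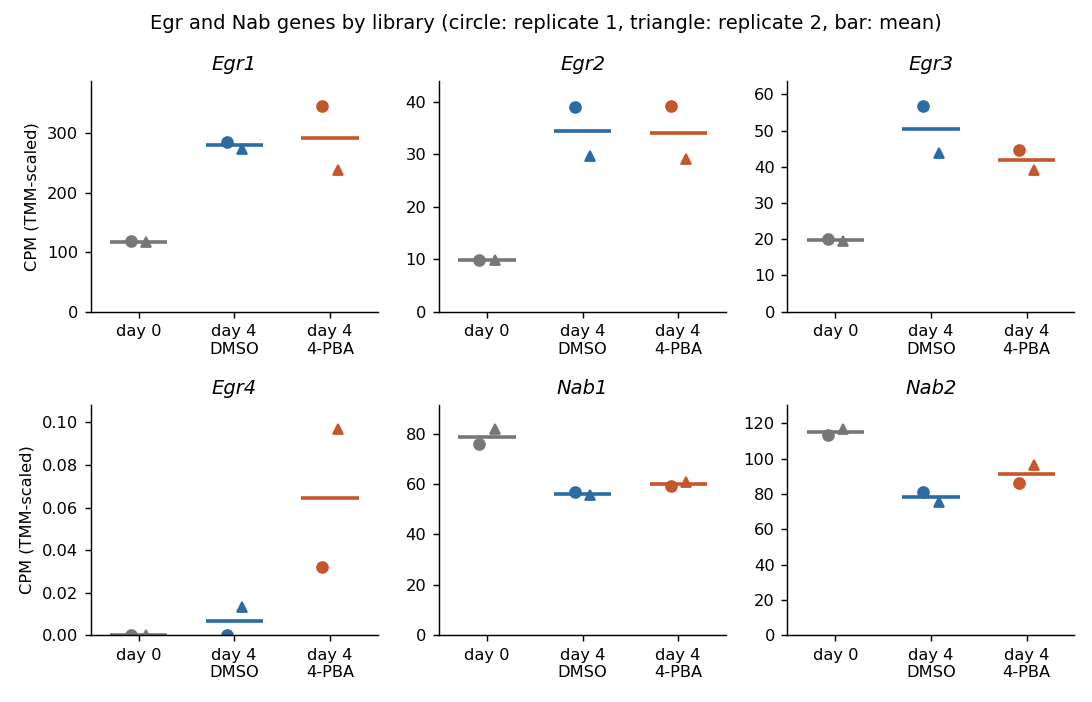
CPM of the 6 genes in each library on linear axes that start at 0, with replicate 1 as a circle, replicate 2 as a triangle and the group mean as a bar. Egr1, Egr2 and Egr3 lie higher in all 4 day 4 libraries than at day 0, Nab1 and Nab2 lie lower, and Egr4 stays below 0.1 CPM.

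Egr4 was close to absent. It had 0 counts in both day 0 libraries, 0 and 1 with DMSO, and 2 and 6 with 4-PBA. A count of 0 allows up to 3 counts, which is 0.0617 and 0.0427 CPM in the day 0 libraries, for counting error only. The 4-PBA libraries held the most counts, but without a filter on low counts the adjusted p of edgeR was 0.738 against DMSO and 0.126 against day 0.

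Levels between genes were compared as CPM per kilobase of merged exon length in GENCODE M21, with means over 2 libraries. At day 0 Nab2 was the most abundant of the 6, at 39.1 ± 0.742 CPM per kilobase (SD, n = 2), followed by Egr1 at 26.3 ± 0.408. Nab1 stood at 19.2 ± 1.00, Egr3 at 4.48 ± 0.0948 and Egr2 at 2.91 ± 0.00490. No neighbours in that order overlapped.

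With DMSO the order changed. Egr1 was first at 62.5 ± 1.90 CPM per kilobase (SD, n = 2), above Nab2 at 26.7 ± 1.35 and Nab1 at 13.7 ± 0.212. Egr3 at 11.4 ± 2.08 and Egr2 at 10.1 ± 1.95 did not differ beyond their spread. With 4-PBA Egr1 stood at 65.2 ± 17.1, Nab2 at 31.1 ± 2.35 and Nab1 at 14.6 ± 0.245 CPM per kilobase, and Egr2 (10.0 ± 2.13) and Egr3 (9.49 ± 0.901) again did not differ beyond their spread. The order in each group was the same when the longest transcript was used as the length.

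The summed level of Egr1, Egr2 and Egr3 divided by that of Nab1 and Nab2, both in CPM per kilobase, was 0.596 and 0.560 in the day 0 libraries. It was 2.13 and 2.04 with DMSO and 2.26 and 1.48 with 4-PBA. Nab RNA therefore exceeded Egr RNA at day 0, and Egr RNA exceeded Nab RNA in all 4 day 4 libraries, while the DMSO and 4-PBA libraries overlapped. Egr1 made up 72.4% to 78.1% of the Egr sum in every library, and Nab2 65.5% to 68.8% of the Nab sum.

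Between 4-PBA and DMSO at day 4, 1 of the 5 tested genes was called, Nab2, which was higher with 4-PBA. edgeR called 4.90% of all tested genes in this comparison, 2.13% as higher and 2.78% as lower. The balance of these calls depended on scaling: 43.4% of the 855 were higher, against 51.5% of 896 with library size only. Nab2 stood at 86.4 and 96.2 CPM with 4-PBA against 81.2 and 75.6 CPM with DMSO. Both 4-PBA libraries lay above both DMSO libraries, as for 23.0% of all tested genes. They lay below both day 0 libraries. The log2 fold change was 0.22 (SE 0.0460, adjusted p 0.00421), with a 95% interval from 0.13 to 0.32. The call held under 13 of 14 alternatives, with adjusted p from 4.2e-06 to 0.198. It was lost without 4-PBA replicate 2, where the log2 fold change was 0.14 (adjusted p 0.198). In the same comparison 4 of the 10 muscle markers were called, 1 higher and 3 lower (40%, against 4.90% of all tested genes). The fold change was positive for 4 markers and negative for 6, with a median log2 fold change of -0.070. Their summed levels did not overlap, as was true of 45.5% of tested genes taken singly. The part of these marker differences in the Nab2 difference was not tested.

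By GENCODE M21, exons of Nab2 overlap those of 3 genes of the other strand, and whether counting used strand is not given in the sources used here, so its values are uncertain to that extent. Gm16229 covers 1050 bases (35.7%) of its merged exons and had 1 to 16 counts per library, against 5125 or more for Nab2. Nemp1 covers 151 bases (5.13%) and was called in the same directions as Nab2 in all 3 comparisons, with 44.6 ± 0.411 CPM at day 0, 15.2 ± 1.49 with DMSO and 19.05 ± 1.07 with 4-PBA (SD, n = 2). Stat6 covers 40 bases and had 50 to 69 counts per library. The part of these genes in the values of Nab2 was not tested.

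Nab1 stood at 59.3 and 60.7 CPM with 4-PBA against 56.7 and 55.5 CPM with DMSO. The groups did not overlap, as was true of 45.5% of all tested genes (23.0% higher and 22.5% lower). The difference was not called (log2 fold change 0.098, SE 0.0454, adjusted p 0.261 by edgeR), with a 95% interval from 0.006 to 0.19.

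Egr1 stood at 347 and 238 CPM with 4-PBA, 1 library above and 1 below both DMSO libraries. The log2 fold change was 0.060 (SE 0.215, adjusted p 0.941 by edgeR), and its 95% interval ran from -0.60 to 0.72. Differences of up to about these bounds could not be told from 0. Its sign followed the library kept. Leaving out 4-PBA replicate 1 gave -0.24 (adjusted p 0.00179), and leaving out replicate 2 gave 0.31 (adjusted p 3.2e-05). Each of these fits left 1 library in the 4-PBA group, which was assumed to vary like the other groups.

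Egr2 stood at 39.2 and 29.0 CPM with 4-PBA against 39.0 and 29.7 CPM with DMSO, so the libraries of both groups covered nearly the same range. The log2 fold change was -0.007 (SE 0.231, adjusted p 0.994 by edgeR), with a 95% interval from -0.71 to 0.70. Leaving out replicate 1 or 2 of DMSO gave 0.20 and -0.19, and leaving out those of 4-PBA gave -0.24 and 0.20. Egr3 stood at 44.6 and 39.0 CPM with 4-PBA, and its replicate 1 lay between the DMSO libraries. The log2 fold change was -0.27 (SE 0.1545, adjusted p 0.528 by edgeR), with a 95% interval from -0.70 to 0.17. Leaving out DMSO replicate 1 gave -0.071 (adjusted p 0.671) and leaving out replicate 2 gave -0.44 (adjusted p 4.08e-08), so its size and its call rested on the DMSO library used. For the 4-PBA replicates these values were -0.37 and -0.17. Egr3 was also called without a filter on low counts (-0.27, adjusted p 0.0101).

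**Figure D2:**
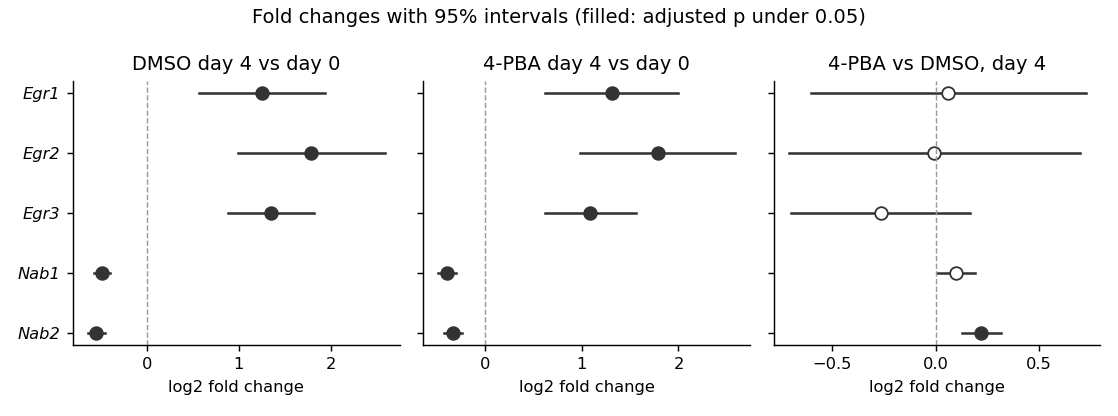
log2 fold change (horizontal axis) of the 5 tested genes in the 3 comparisons, with 95% intervals as lines and filled points for an adjusted p under 0.05. Against day 0 the Egr genes lie to the right of 0 and the Nab genes to the left, and between 4-PBA and DMSO only Nab2 is filled. The horizontal axes differ in range.

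**Figure D3:**
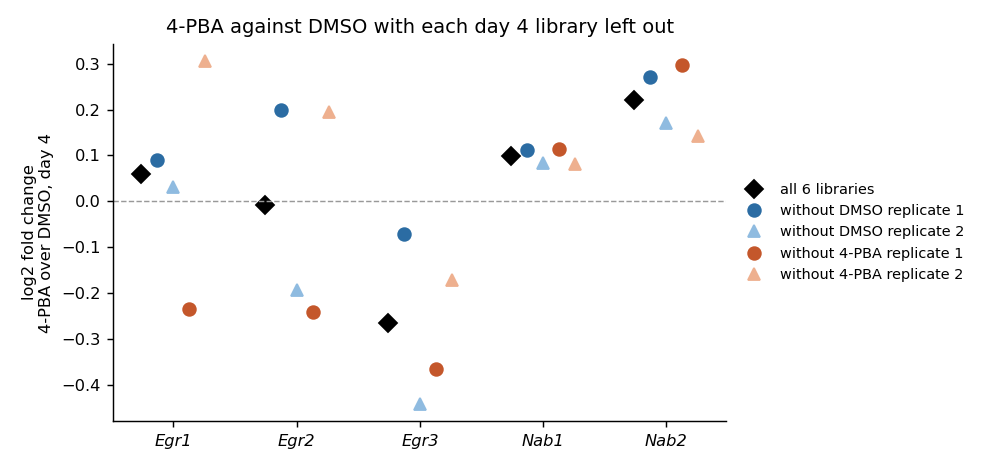
log2 fold change of 4-PBA over DMSO (vertical axis) for the 5 tested genes with all 6 libraries and with each day 4 library left out. The points of Egr1 run from -0.24 to 0.31 and those of Egr2 from -0.24 to 0.20, on both sides of 0, while those of Nab1 and Nab2 stay above 0.

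Some Egr genes differed widely between the day 4 replicates. Among 10681 genes of at least 5 CPM on average, the median absolute log2 difference between the 4-PBA replicates was 0.046, and 99% of genes lay below 0.32. Egr1 differed by 0.54 and Egr2 by 0.44, more than 99.8% and 99.7% of genes. In the DMSO pair, where the 99% point was 0.35, Egr2 differed by 0.40 and Egr3 by 0.37, but Egr1 by 0.062. At day 0 the 3 Egr genes differed by 0.003 to 0.043. Nab1 and Nab2 differed by 0.032 to 0.16 in the 3 groups. Nab1 differed more than the Egr genes at day 0 (0.11), and Nab2 differed more than Egr1 in the DMSO pair (0.10).

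Other immediate-early genes were read beside the Egr genes from a list of 28. In DMSO against day 0, 16 were called higher and 7 lower (82.1% called, against 66.3% of all tested genes). The median log2 fold change was 0.355, against 0.023 over all tested genes. Fos, the AP-1 subunit, was at 2.43 ± 0.148 CPM at day 0 and rose to 11.8 ± 0.0910 CPM with DMSO (SD, n = 2). The fitted log2 fold change was 2.29 (SE 0.350, adjusted p 0.00678 by edgeR). Fosl1, another AP-1 subunit, was at 185 ± 4.34 CPM at day 0 and fell to 25.8 ± 3.73 CPM. Its log2 fold change was -2.845 (SE 0.0855, adjusted p 5.67e-09 by edgeR). The call of Fos was lost when any of the 4 libraries compared was left out (2.22 to 2.34, adjusted p 0.0588 to 0.0788). With 4-PBA against day 0, 17 were called higher and 8 lower (89.3% called, against 65.6% of all tested genes, median 0.50). Fos (3.03) and Fosl1 (-3.27) were again the extremes.

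Between the 4-PBA replicates, 19 of the 24 immediate-early genes of at least 5 CPM were higher in replicate 1, the library with more Egr1, with a median log2 difference of 0.13 and a largest value of 0.71 for Fos. The median over all genes was -0.002. In the DMSO pair 17 of 24 were higher in replicate 1 (median 0.062), and at day 0 11 of 24 (median -0.008). Fos stood at 24.4 and 15.0 CPM with 4-PBA and at 11.9 and 11.7 CPM with DMSO, a difference that was not called (log2 fold change 0.74, adjusted p 0.326 by edgeR). Fos was given for this comparison after its values were seen. The part of this library difference in the Egr values was not tested, and all 6 libraries carry the same batch number in the labels.

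**Figure D4:**
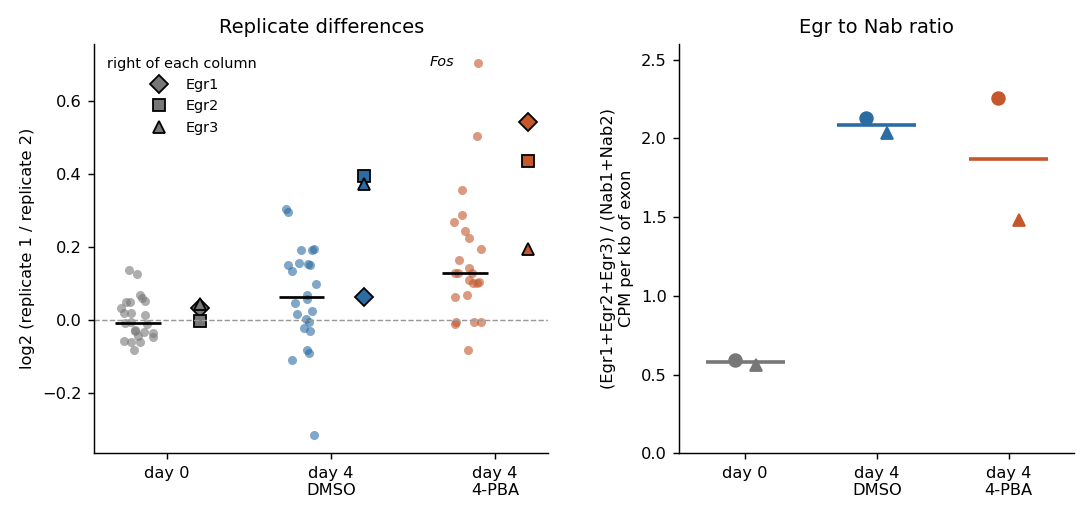
Left, log2 ratio of replicate 1 to replicate 2 (vertical axis) in each group for the 24 other immediate-early genes (dots, median as a bar) and for Egr1, Egr2 and Egr3 (outlined symbols). In the 4-PBA pair Egr1 (0.54) and Fos (0.71) lie highest. Right, summed CPM per kilobase of the 3 Egr genes over that of the 2 Nab genes by library, below 0.6 at day 0 and 1.48 to 2.26 at day 4.

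Between 4-PBA and DMSO, 1 of the 28 immediate-early genes was called higher and 6 lower (25.0% called, against 4.90% of all tested genes). The median log2 fold change was 0.024, against 0.002 over all genes. Ier5 was higher with 4-PBA (0.16, SE 0.0441, adjusted p 0.0238). Fosl1 (-0.43, SE 0.0949, adjusted p 0.0474), the proliferation factor Myc (-0.33, SE 0.0595, adjusted p 0.00295) and the AP-1 subunit Fosl2 (-0.26, SE 0.0345, adjusted p 7.93e-06) were lower in edgeR's test. Myc and Fosl2 held under all 14 alternatives. Without 4-PBA replicate 1 or 2, Ier5 (0.17 and 0.16, adjusted p 0.143 and 0.196) and Fosl1 (-0.49 and -0.36, adjusted p 0.0809 and 0.191) were not called. Fosl1 also missed the threshold with DESeq2 size factors (-0.42, adjusted p 0.0628) and with library size only (-0.42, adjusted p 0.0517), so its call was lost in 4 of 14 alternatives. Without DMSO replicate 1 it was called at -0.28 (adjusted p 0.000118).

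The ERK and serum response factor module, the route to Egr transcription, was measured for all 16 listed genes. In DMSO against day 0, the median log2 fold change was -0.12. Called were 5 higher and 9 lower (87.5%, against 66.3% of all tested genes). The largest of these among genes of at least 5 CPM were Araf, a Raf kinase (0.51, SE 0.0378, adjusted p 2.79e-14), and Elk3, a ternary complex factor (-0.79, SE 0.0607, adjusted p 8.62e-07 by edgeR). With 4-PBA against day 0 the numbers were 5 and 7 (75% called, against 65.6% of all tested genes, median -0.10). Araf stood at 0.46 and Elk3 at -0.745. Between 4-PBA and DMSO, 1 was called higher and 2 lower (18.8% called, against 4.90% of all tested genes, median 0.008). Elk4, a ternary complex factor (-0.14, SE 0.0366, adjusted p 0.0166), and Mrtfb, a coactivator of serum response factor (-0.15, SE 0.0436, adjusted p 0.0335), were lower. The gene called higher, named after its values were seen, was the ERK-activated kinase Rps6ka1, at 0.950 against 0.451 CPM (1.07, SE 0.326, adjusted p 0.0494 by edgeR). Without 4-PBA replicate 1 or 2 none of these 3 was called, with adjusted p of 0.224 and 0.114 for Elk4, 0.127 and 0.309 for Mrtfb, and 0.0760 and 0.395 for Rps6ka1. Without DMSO replicate 2 Elk4 stood at -0.13 (adjusted p 0.0511), and without DMSO replicate 1 Mrtfb stood at -0.12 (adjusted p 0.144). Mrtfb also missed the threshold without day 0 replicate 1, and Rps6ka1 without any single library. Counting every alternative, the call was lost in 3 of 14 for Elk4, 6 of 14 for Mrtfb and 9 of 13 for Rps6ka1.

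Genes reported as Egr targets in other systems were tested for 31 of 33. In DMSO against day 0, 16 were called higher and 11 lower (87.1% called, against 66.3% of all tested genes). The median log2 fold change was 0.19. Pdgfb, a growth factor gene, was at 2.56 ± 0.162 CPM at day 0 and rose to 33.6 ± 2.53 CPM with DMSO (SD, n = 2). On the log2 scale this was a change of 3.70 (SE 0.0897, adjusted p 2.6e-28 by edgeR). Ngfr, a neurotrophin receptor gene, was at 13.35 ± 1.02 CPM at day 0 and fell to 0.106 ± 0.0600 CPM. On the log2 scale the change was -6.91 (SE 0.245, adjusted p 3.4e-23 by edgeR). With 4-PBA against day 0 the numbers were 15 and 13 (90.3% called, against 65.6% of all tested genes, median 0.068). Pdgfb stood at 3.69 and Ngfr at -5.87.

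Between 4-PBA and DMSO, 1 of the 31 was called higher and 4 lower (16.1% called, against 4.90% of all tested genes). The median was -0.009. Pmp22, a myelin protein gene, was higher at 86.4 ± 1.33 against 68.0 ± 0.653 CPM (SD, n = 2; log2 fold change 0.345, SE 0.0416, adjusted p 1.15e-06 by edgeR). Lower were Ccnd1, the cyclin D1 gene (-0.29, SE 0.0328), the fibronectin gene Fn1 (-0.21, SE 0.0259) and the angiogenic factor Vegfa (-0.18, SE 0.0329), with adjusted p of 4.38e-07, 1.83e-06 and 0.00068. These 4 calls held under all 14 alternatives. The remaining call, Cd44, a hyaluronan receptor named after its values were seen, was lower (-0.12, SE 0.02893, adjusted p 0.00774 by edgeR). It was lost without 4-PBA replicate 1 (-0.099, adjusted p 0.302) or 2 (-0.15, adjusted p 0.0645).

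NuRD genes, whose products Nab proteins recruit, were tested for all 14. In DMSO against day 0, 3 were called higher and 8 lower (78.6% called, against 66.3% of all tested genes, median log2 fold change -0.20). They were led by the remodeller Chd3 (0.53, SE 0.0297, adjusted p 1.24e-17) and the histone-binding Rbbp7 (-0.675, SE 0.0325, adjusted p 1.59e-19 by edgeR). With 4-PBA against day 0, 2 were higher and 8 lower (71.4% called, against 65.6% of all tested genes, median -0.19). They were led by Gatad2b (0.46) and Rbbp7 (-0.63). Between 4-PBA and DMSO, 1 gene was called (7.14%, against 4.90% of all tested genes, median 0.034). This was Chd3, which was lower (-0.12, SE 0.0295, adjusted p 0.00962 by edgeR). Its call was lost without 4-PBA replicate 1 or 2 (-0.12 in both).

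Sp factors, which bind GC boxes that can overlap Egr sites, and Wt1 were tested for 4 of 5. With DMSO Sp4 rose (0.57, SE 0.106, adjusted p 1.39e-05), and 2 of the 4 fell, Sp3 the most (-0.30, SE 0.0372, adjusted p 9.19e-09 by edgeR). Called were 75%, against 66.3% of all tested genes, and the median was -0.12. With 4-PBA against day 0 the counts were again 1 and 2 (75% called, against 65.6% of all tested genes, median -0.22). Sp4 stood at 0.60 and Sp3 at -0.32. Between 4-PBA and DMSO Sp1 was lower (-0.16, SE 0.0391, adjusted p 0.0125 by edgeR). It was the only call (25.0%, against 4.90% of all tested genes, median -0.031). It was lost without DMSO replicate 1 (-0.10, adjusted p 0.112) and without 4-PBA replicate 2 (-0.12, adjusted p 0.311).

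**Figure D5:**
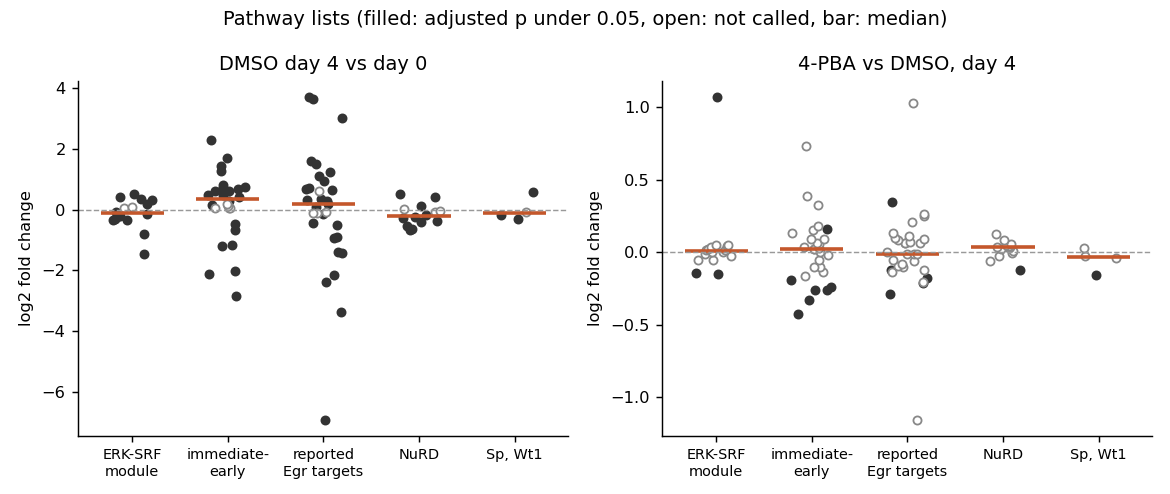
log2 fold changes (vertical axes, different ranges) of the tested genes of the 5 lists in DMSO against day 0 and in 4-PBA against DMSO, filled where called, with the list median as a bar. The medians between 4-PBA and DMSO lie between -0.031 and 0.034.

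Likeness of pattern was measured as the root-mean-square difference between log2 CPM profiles over the 6 libraries, each centred on its own mean, among genes of at least 5 CPM. The genes most like Egr1 were Ralgps1 (0.097), Zfp667 (0.097), the immediate-early gene Btg2 (0.11), Vwa1 (0.12) and Setbp1 (0.12). Btg2, an antiproliferative gene, stood at 20.9 and 19.0 CPM at day 0. It was at 53.0 and 53.8 CPM with DMSO and at 56.6 and 46.4 CPM with 4-PBA, so its 4-PBA libraries had the same order as those of Egr1. The ranking rested on single libraries. When it was repeated with 1 library left out, 0 of the 5 remained without either 4-PBA library, 3 and 2 without day 0 replicates 1 and 2, and 4 without either DMSO library.

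For Egr2 the most alike were Acpp (0.13), Gask1b (0.13) and Esr1 (0.14), and for Egr3 Carns1 (0.11), Fam53b (0.11) and Gm13563 (0.11). For Nab1 they were Mepce (0.021), Adk (0.022) and Ptpa (0.025). For Nab2 they were Capn10 (0.032), Erf (0.035), which encodes an ETS-domain repressor, and Zbed4 (0.037). Erf stood at 81.7 and 80.9 CPM at day 0, with DMSO at 58.2 and 55.3 and under 4-PBA at 59.4 and 66.4. Among the members, the profiles of Nab1 and Nab2 differed by 0.067, while Egr1 and Nab2 differed by 0.84. Egr1 and Egr3 differed by 0.18, Egr1 and Egr2 by 0.26, and Egr2 and Egr3 by 0.29. This measure grows with the size of the changes, so its smaller value for the Nab genes does not show a closer shared pattern.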

How the data were processed

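RNA was made into directional libraries, per the labels' protocols. The authors deposited raw counts per gene symbol, 1 column per library. The build GRCm39 is named in the submitters' processing notes, and the aligner, counter, annotation and strand setting are not given in the sources used here. The analysis ran in R 4.3.3 with edgeR 4.0.16 and used filterByExpr by group, TMM scaling, 1 mean per group over all 6 libraries and robust glmQLFit. P-values of its quasi-likelihood test were adjusted over 17433 genes by Benjamini-Hochberg. SE is the absolute log2 fold change divided by the square root of F, and 95% intervals use the test's degrees of freedom. With 2 libraries against 2, an exact permutation test cannot give a p under 0.333. Replicates differed by more than sampling noise (chi-square per gene 3.85 to 6.72). Exon lengths and overlaps come from GENCODE M21 (GRCm38). Figures used matplotlib 3.10.9. The code was checked on simulated data. Alternatives included DESeq2 1.42.0 and limma 3.58.1 (voom).

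The members, gene lists and alternatives were chosen with earlier results of these data known, and the settings for likeness to Egr1 after seeing the data. Named list genes were, per list and comparison, the largest called rise and fall of at least 5 CPM, and up to 3 each way between 4-PBA and DMSO. The genes most alike were 5 for Egr1 and 3 for the others.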

Additional observations from a re-analysis of the deposited data

How the results depend on the processing

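Each member's log2 fold change was recomputed under 14 alternatives in each comparison, 210 values in all. Of these, 187 kept their direction and side of the threshold, 14 lost a call, 4 gained one and 5 changed sign. The sign changes were those of Egr1 without 4-PBA replicate 1 (-0.24) and of Egr2 between 4-PBA and DMSO with library size only (0.0032), with limma-voom (6.2e-05), without DMSO replicate 1 (0.20) and without 4-PBA replicate 2 (0.195). No value of the 37 results for listed genes changed sign, and 44 of 517 lost a call.

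Differences between replicates correlated across genes at 0.046, -0.085 and -0.088 between groups. These values cannot decide whether the replicate numbers pair the libraries, since a pairing could show in only some genes. With a replicate block (the number as a term of the fit), 2 members were called between 4-PBA and DMSO, Nab2 and Egr3 (adjusted p 0.0129), and 768 genes in all. Without a filter beyond 1 count the same number, 2, was called. A change of at least 2-fold left 3 members against day 0 in both comparisons and 0 between 4-PBA and DMSO, and 3825, 3699 and 12 of all genes. An adjusted p under 0.01 left 424 of the 855 genes called between 4-PBA and DMSO, and leaving out 1 library gave 295 (4-PBA replicate 2) to 1194 (DMSO replicate 1). Leaving out 1 library gave 3 to 5 called members with DMSO, 2 to 5 with 4-PBA against day 0 and 1 to 2 between 4-PBA and DMSO, where Egr1 took -0.235 to 0.306. The cause of these changes was not tested. Egr4, with 0 to 6 counts per library, did not pass the filter on low counts and was not tested in the main fit.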
